A study of Arabidopsis thaliana with 6 samples.

Results

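The genes described here are 8 genes of Arabidopsis thaliana that break down glucosinolates or steer the products, picked by gene ID from the 33323 genes listed for each library. They are the myrosinase genes TGG1 (AT5G26000), TGG2 (AT5G25980) and PEN2 (AT2G44490), and the genes for the specifier and modifier proteins ESP (AT1G54040), ESM1 (AT3G14210), NSP1 (AT3G16400), NSP2 (AT2G33070) and NSP5 (AT5G48180). Poly(A) RNA of whole seedlings was sequenced in 3 libraries of the hid1 (hidden treasure 1) mutant and 3 libraries of the wild type (WT). Plants of both genotypes were 5 days old and grown under cR, read here as continuous red light because the study is known for it, so that the light is shared by both groups. HID1 is a noncoding RNA, known for its role in photomorphogenesis, the change of a seedling to growth in light. The labels do not give the accession, the kind of hid1 lesion or the number of seedlings in a library. The tables used here pair no gene ID with HID1, so its own level is not reported as a check of the genotype labels.

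Glucosinolates are sulfur-containing glucosides that plants of the cabbage order store apart from myrosinases, the enzymes that remove their glucose. When tissue is crushed both meet, and the unstable product turns by itself into an isothiocyanate, the pungent mustard oil. Specifier proteins divert that product to nitriles or epithionitriles, which are less toxic to many insects. In Arabidopsis, TGG1 and TGG2 are the abundant myrosinases of guard cells and of phloem-associated myrosin cells, and PEN2 is an atypical myrosinase that acts on indole glucosinolates in living cells attacked by fungi.

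Of these 8 genes, 4 differed between hid1 and WT seedlings. TGG2 and ESP were lower in hid1, with mean levels 0.444 and 0.272 times those of WT, and PEN2 and NSP5 were higher, at 1.54 and 1.52 times the WT mean. TGG1, ESM1 and NSP1, the most abundant of the group, did not pass the test. NSP2 was at or near 0 in each library and was not tested. Levels are RPKM (read number divided by gene model length and library depth), as deposited, and means are given ± SD over n = 3 libraries per genotype. A log2 fold change is the mean log2(RPKM + 1) of hid1 less that of WT, which understates the change of low genes, and it comes with its standard error (SE). A gene was called changed where the p-value of limma, adjusted by the Benjamini-Hochberg method over all 18871 genes tested, was at most 0.05.

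The calls on 4 of the 7 tested genes (57.1%) stand beside 13.6% of all genes tested that were called in the same comparison, 9.41% higher in hid1 and 4.21% lower. The 8 genes were proposed with earlier results of these data known, so their share is a description and not a test of the group. The median log2 fold change was -0.03 over the 7 genes and 0.07 over all genes tested. Depth was estimated at about 17.1 to 24.1 M reads per library, overlapping between the genotypes. The balance of all calls depended on the scaling of libraries, with 1775 higher against 794 lower as deposited and 1305 higher against 1343 lower after quantile normalization. In bulk RNA of whole seedlings, fewer cells of a type and less RNA per cell cannot be told apart. Whether the replicates came from separate plantings is not stated beyond the submitters' term biological replicates.

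TGG1 and TGG2 are neighbours on chromosome 5 that face each other. In the TAIR10.1 annotation, TGG2 spans 9072708 to 9075777 on the plus strand and TGG1 spans 9079452 to 9082384 on the minus strand, with 3674 bases and the gene AT5G25990 between them. The 250 bases before each annotated start are shown because the pair shared stretches there, while TGG2 passed the test and TGG1 did not, a difference between them that was not tested. They were read from TAIR10.1 (RefSeq), 5′ to 3′ on the strand of the gene, at chr5:9082385-9082634 for TGG1 and chr5:9072458-9072707 for TGG2. Capitals mark the 3 runs of at least 10 bases that both windows hold.
TGG1: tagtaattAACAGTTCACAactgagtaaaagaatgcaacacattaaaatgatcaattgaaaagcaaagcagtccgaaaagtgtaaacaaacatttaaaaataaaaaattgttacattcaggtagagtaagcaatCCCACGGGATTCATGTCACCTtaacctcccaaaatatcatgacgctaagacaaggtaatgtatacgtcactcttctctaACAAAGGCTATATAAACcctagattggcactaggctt
TGG2: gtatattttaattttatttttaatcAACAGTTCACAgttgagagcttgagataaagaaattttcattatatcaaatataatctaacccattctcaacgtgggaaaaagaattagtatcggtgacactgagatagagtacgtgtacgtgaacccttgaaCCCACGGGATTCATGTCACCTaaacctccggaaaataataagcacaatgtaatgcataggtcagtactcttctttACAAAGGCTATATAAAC
The shared runs were 11, 21 and 17 bases long and held 49 of the 250 bases in each window. The 17-base run contains the letters TATAAA and its last base lay at -21 from the annotated start of TGG1 and at -1 from that of TGG2. The longest run shared by any of the other 27 pairs of windows among the 8 genes was 7 to 14 bases. Neither window held any of the 3 motifs that are described with the next windows.

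The windows before ESP, PEN2 and NSP5 are shown as those of the other three genes that changed. They lie at chr1:20173950-20174199 on the minus strand for ESP, chr2:18364402-18364651 on the plus strand for PEN2 and chr5:19542761-19543010 on the minus strand for NSP5. Capitals mark CACATG (the PBE-box, a sequence bound by PIF factors) and TTGAC (the core of the W-box, bound by WRKY factors) on either strand.
ESP: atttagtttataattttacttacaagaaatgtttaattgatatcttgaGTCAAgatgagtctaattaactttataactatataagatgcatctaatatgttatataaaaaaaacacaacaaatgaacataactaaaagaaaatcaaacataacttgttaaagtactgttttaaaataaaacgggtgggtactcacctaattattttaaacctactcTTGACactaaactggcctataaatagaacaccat
PEN2: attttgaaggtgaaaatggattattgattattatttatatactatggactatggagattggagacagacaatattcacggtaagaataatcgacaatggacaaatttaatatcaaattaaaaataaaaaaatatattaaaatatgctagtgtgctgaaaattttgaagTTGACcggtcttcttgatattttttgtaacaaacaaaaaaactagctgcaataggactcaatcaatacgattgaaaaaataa
NSP5: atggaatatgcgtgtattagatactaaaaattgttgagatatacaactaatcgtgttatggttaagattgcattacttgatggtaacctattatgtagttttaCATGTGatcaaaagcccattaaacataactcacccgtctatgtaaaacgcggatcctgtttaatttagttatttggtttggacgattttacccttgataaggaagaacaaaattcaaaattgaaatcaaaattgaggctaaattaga
The G-box CACGTG, which PIF and MYC factors bind, was in 0 of the 8 windows, and in 6.58% of the 26711 windows of the same length before protein-coding genes. CACATG was in 2 of the 8 windows (NSP5 and ESM1) and in 11.2% of all windows. TTGAC was in 2 of the 8 (ESP, at -202 and -34 bases from the start, and PEN2, at -82) and in 45.0% of all windows. These matches are descriptions of the letters in these windows.

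TGG1 was the most abundant of the 8 genes. It had 445.8, 250.5 and 663.2 RPKM in the hid1 libraries, against 459.6, 559 and 574.1 RPKM in the WT libraries. The genotypes overlapped, with hid1 replicate 2 the lowest and hid1 replicate 3 the highest of all 6 libraries. The means were 453.1 ± 206.5 in hid1 and 530.9 ± 62.2 in WT, and the difference did not pass (log2 fold change -0.33, SE 0.28, limma adjusted p = 0.46). The fold change was 0.04 without hid1 replicate 2, so that library set its sign.

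TGG2 is known to overlap with TGG1 in function. It had 22.2, 19.0 and 31.8 RPKM in hid1, against 48.7, 56.1 and 59.5 RPKM in WT. The highest hid1 library lay below the lowest WT library. The genotypes were separated in this way for 34.6% of all genes tested, 11.4% with hid1 lower and 23.1% with hid1 higher. TGG2 fell to 24.3 ± 6.69 RPKM in hid1, against 54.8 ± 5.54 in WT (-1.17, SE 0.17, adjusted p = 0.00159). About 747 to 1402 reads per library stood behind the hid1 values and 1879 to 2827 behind the WT values, as estimated from exon length and depth. Of the 50-base words in the exons of TGG2, 0.43% occurred elsewhere in the genome, all of them in TGG1, so few reads of that length could be exchanged between the pair.

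Within each library TGG2 was set against TGG1, a ratio that does not depend on depth. TGG2 stood at 4.97%, 7.57% and 4.80% of the TGG1 level in hid1, against 10.59%, 10.04% and 10.37% in WT. All 3 hid1 values lay below the WT values. The ratio varied little in WT (10.3% ± 0.276) and more in hid1 (5.78% ± 1.55), where replicate 2, with the least TGG1, gave the highest ratio. Whether the change in TGG2 differs from that in TGG1 was not tested, and 3 libraries against 3 cannot give an exact permutation p below 0.1.

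PEN2 lies at 18364652 to 18367835 on chromosome 2, plus strand. It had 57.6, 63.6 and 76.1 RPKM in hid1, against 41.0, 42.7 and 44.8 RPKM in WT. Each hid1 library was above each WT library. PEN2 rose to 65.8 ± 9.43 RPKM in hid1, against 42.8 ± 1.91 in WT (0.60, SE 0.12, adjusted p = 0.00947). The order of the myrosinase genes differed between the genotypes: PEN2 was above TGG2 in every hid1 library and below it in every WT library. Relative to TGG1 and TGG2 together, PEN2 stood at 12.32%, 23.59% and 10.95% in hid1, against 8.06%, 6.94% and 7.07% in WT.

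**Figure D1:**
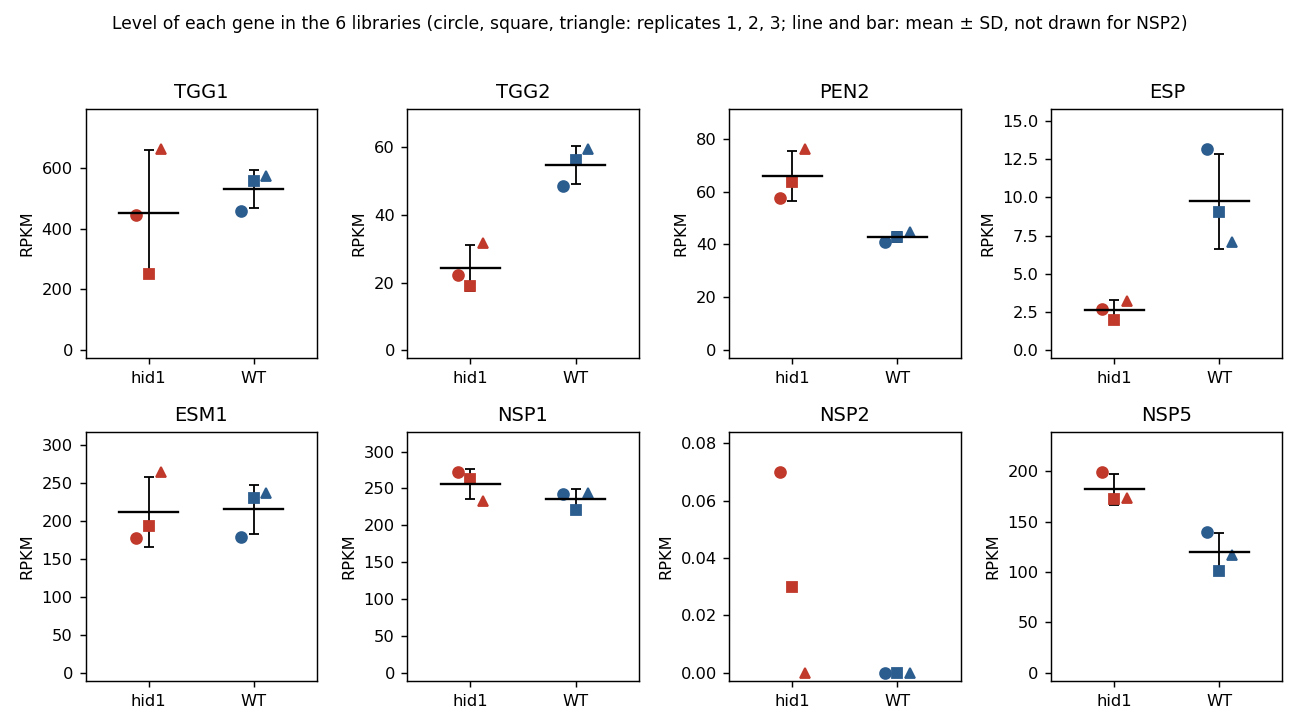
RPKM of the 8 genes in each library, hid1 in red at the left and WT in blue at the right of each panel, with symbols for replicates 1 to 3 and the mean ± SD as line and bar (not drawn for NSP2). The hid1 libraries lie below the WT libraries for TGG2 and ESP and above them for PEN2 and NSP5, and overlap for TGG1, ESM1 and NSP1.

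ESP, the epithiospecifier protein, diverts glucosinolate breakdown to epithionitriles and nitriles, and is known to vary strongly between Arabidopsis accessions. It lies on chromosome 1, 20170715 to 20173949, minus strand. It had 2.72, 2.00 and 3.24 RPKM in hid1, against 13.2, 9.01 and 7.06 RPKM in WT. The genotypes did not overlap, and WT replicate 1 was the highest. ESP fell to 2.65 ± 0.623 RPKM in hid1, against 9.74 ± 3.12 in WT (-1.53, SE 0.21, adjusted p = 0.00109), one of the larger decreases in the table, at percentile 0.3 of all fold changes. About 82 to 135 reads stood behind each hid1 value and 316 to 479 behind each WT value, so ESP has the lowest depth of the tested members. Of its 50-base exon words, 3.7% occurred elsewhere in the genome, in AT1G79150, AT3G29634 and places outside any listed gene.

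ESM1, a protein known to shift breakdown away from nitriles towards isothiocyanates, did not pass. It had 178.2, 193.6 and 265 RPKM in hid1, against 178.7, 230.7 and 237.1 RPKM in WT. The genotypes overlapped, each with its replicate 1 lowest, and the means were 212.3 ± 46.3 RPKM in hid1 and 215.5 ± 32.0 RPKM in WT (-0.03, SE 0.16, adjusted p = 0.917). Its value carries a doubt, because 24.9% of its 50-base exon words occurred again 331 to 2443 bases before its own start, outside any listed gene. ESP as a share of ESM1, proteins that are known to oppose each other, was 1.53%, 1.03% and 1.22% in hid1, against 7.36%, 3.91% and 2.98% in WT.

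The nitrile specifier proteins, or NSPs, divert breakdown to simple nitriles. NSP1 (chromosome 3, 5566083 to 5568545, plus strand) had 272.5, 262.2 and 233.6 RPKM in hid1, against 242.9, 220.3 and 243.3 RPKM in WT. The ranges overlapped, and the difference did not pass (0.12, SE 0.11, adjusted p = 0.50). NSP1 shared 28.2% of its 50-base exon words with other places, nearly all in its neighbour NSP4, so reads of the pair may have been split between them.

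NSP5 (chromosome 5, 19540937 to 19542760, minus strand) had 199.2, 172.8 and 173.3 RPKM in hid1, against 139.9, 101.3 and 117.2 RPKM in WT. The lowest hid1 library was above the highest WT library, WT replicate 1. NSP5 rose to 181.7 ± 15.1 RPKM in hid1, against 119.5 ± 19.4 in WT (0.61, SE 0.13, adjusted p = 0.0133). None of the 50-base exon words of NSP5 or PEN2 occurred elsewhere. NSP5 stood at 73.1%, 65.9% and 74.2% of NSP1 in hid1, against 57.6%, 46.0% and 48.2% in WT.

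NSP2 (chromosome 2, 14028282 to 14031164, minus strand) was listed at 0.07, 0.03 and 0 RPKM in hid1 and at 0 in the 3 WT libraries. These values correspond to about 2, 1 and 0 reads in hid1 and 0 reads in WT, below the filter of a mean of 1 RPKM in either genotype, and no fold is given.

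Taken per length, the order of levels in WT was TGG1, NSP1, ESM1, NSP5, TGG2, PEN2, ESP and NSP2, and NSP1 and ESM1 were the only neighbours whose libraries overlapped. In hid1 the order was TGG1, NSP1, ESM1, NSP5, PEN2, TGG2, ESP and NSP2, and the libraries of TGG1, NSP1, ESM1 and NSP5 overlapped from each to the next. The 5 specifier and modifier genes together had 653, 631 and 675 RPKM in hid1, against 575, 561 and 605 RPKM in WT. Within that sum, NSP5 took 30.5%, 27.4% and 25.7% in hid1, against 24.3%, 18.0% and 19.4% in WT. The share of ESP was 0.417%, 0.317% and 0.480% in hid1, against 2.29%, 1.61% and 1.17% in WT. ESM1 and NSP1 took shares that overlapped between the genotypes.

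**Figure D2:**
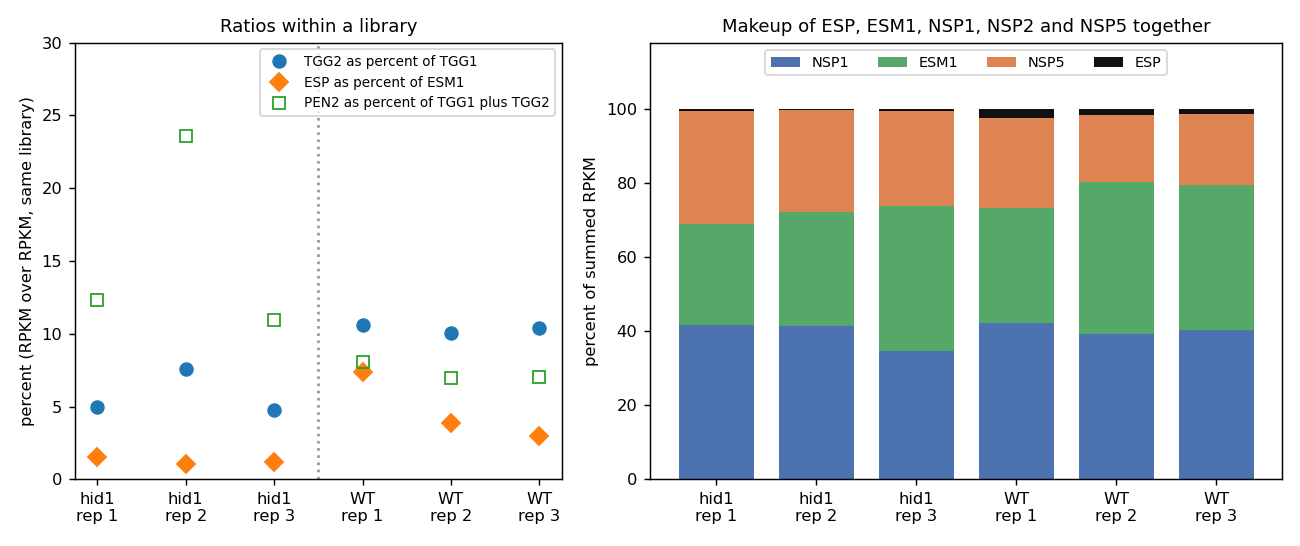
Left, within-library ratios in percent for the 3 hid1 and then the 3 WT libraries; right, the makeup of the summed RPKM of the 5 specifier and modifier genes in the same libraries (NSP2 is too low to be seen). TGG2 relative to TGG1 and ESP relative to ESM1 are lower in each hid1 library, and the NSP5 share is larger.

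The 4 calls were kept in all 13 alternative settings, including each library left out in turn. The log2 fold change ranged from -1.37 to -1.01 for TGG2, from -1.82 to -0.93 for ESP, from 0.49 to 0.69 for PEN2 and from 0.50 to 0.73 for NSP5. The highest adjusted p was 0.0186, 0.0179, 0.0354 and 0.0481 for the same 4 genes in that order, so NSP5 was the nearest to the threshold.

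**Figure D3:**
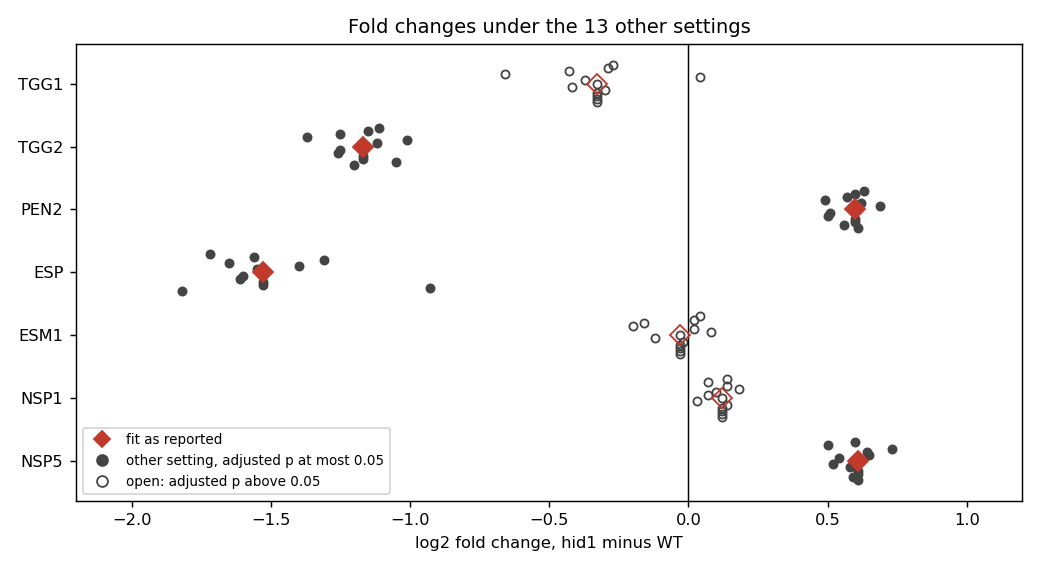
Log2 fold change (hid1 minus WT) of the 7 tested genes, with red diamonds for the fit as reported and grey circles for the 13 other settings, filled where the adjusted p was at most 0.05. TGG2, ESP, PEN2 and NSP5 are filled throughout and stay on their side of 0, while ESM1 lies on both sides of 0 and TGG1 crosses it once.

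Other genes of or near the breakdown pathway were described with a list of 42 genes, of which 40 were tested, 6 fell, 1 rose and 33 did not pass. The share called in both directions together was 17.5%, near the 13.6% of all genes tested, and the median log2 fold change was 0.16. Most calls in the list were lower in hid1, while 4.21% of all genes tested were called lower and 9.41% higher. The list as a whole did not lean that way, as 25 of its 40 tested genes had a log2 fold change above 0. Among the genes called lower, BGLU28 and MBP1 reached the filter only in WT. With a mean of at least 5 RPKM required, 4 of 32 tested list genes fell and 1 rose. Without WT replicate 1 the count was 13, with 8 higher in hid1 and 5 lower.

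ER bodies are stores of glucosidase in the endoplasmic reticulum. Among other myrosinases and the glucosidases of ER bodies, 2 of 8 tested genes fell and 6 did not pass. Those 6 had higher means in hid1, and the median log2 fold change of the 8 was 0.78. TGG4 and TGG5 stood at 2.4 and 2.23 times the WT mean, with overlap between the genotypes (limma adjusted p = 0.16 and 0.401). Their values carry a doubt, because 25.0% and 23.3% of their 50-base exon words occurred elsewhere in the genome. BGLU18, a wound-induced glucosidase of leaf ER bodies, had 20.9, 18.2 and 35.7 RPKM in hid1, against 75.4, 50.3 and 67.6 RPKM in WT (-1.38, SE 0.23, adjusted p = 0.00312). BGLU28, known for glucosinolate turnover under sulfur shortage, had 0.32, 0.20 and 0.89 RPKM in hid1, against 2.88, 2.94 and 2.61 RPKM in WT (-1.40, SE 0.20, adjusted p = 0.00145). The mean of BGLU28 reached the filter of 1 RPKM only in WT, where it was higher. Neither BGLU18 nor BGLU28 overlapped between the genotypes, and BGLU28 lies 14625 bases from PEN2, which moved the other way. PYK10, the main ER body glucosidase of roots and the most abundant gene of the list, stood at 1211 ± 72.5 RPKM in hid1 and 1096 ± 113.8 RPKM in WT (adjusted p = 0.468). TGG3 and TGG6 (also called BGLU36) were listed at 0 in each library.

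Among other specifiers and myrosinase-associated proteins, 2 of 12 fell and 10 did not pass. MBP1, a myrosinase-binding protein, had 0.66, 0.29 and 1.08 RPKM in hid1, against 1.84, 2.46 and 3.08 RPKM in WT (-1.06, SE 0.22, adjusted p = 0.0114). Its mean reached the filter of 1 RPKM only in WT, and its call was lost without WT replicate 3 (adjusted p = 0.0508). JAL35, a jasmonate-responsive jacalin-like lectin, had 55.8, 39.1 and 50.4 RPKM in hid1, against 88.6, 68.3 and 62.6 RPKM in WT (-0.58, SE 0.16, adjusted p = 0.0368). That call was lost in 5 of 13 alternatives (highest adjusted p 0.127), and JAL35 overlaps JAL34 by 631 bases on the opposite strand, so that their reads cannot be told apart if counting ignored strand. NSP3 and NSP4, the chromosome 3 neighbours of NSP1, did not pass (adjusted p = 0.838 and 0.419).

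Of 9 genes for ER body and myrosin cell formation, 1 fell and 8 did not pass. TSA1, a relative of the ER body protein NAI2 that lies 2191 bases from BGLU18, had 4.89, 4.32 and 5.41 RPKM in hid1, against 10.6, 8.05 and 8.32 RPKM in WT (-0.76, SE 0.15, adjusted p = 0.00746). NAI2 itself stood at 114.4 ± 4.80 RPKM in hid1 and 115.6 ± 12.3 RPKM in WT (adjusted p = 0.963). FAMA, the factor known to drive both guard cell and myrosin cell fate, stood at 6.40 ± 1.78 RPKM in hid1 and 7.38 ± 0.140 RPKM in WT (adjusted p = 0.467).

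None of the 4 transport genes passed in this limma fit. An unadjusted p under 0.05 was reached by 1 of them, and by 5685 of all 18871 genes tested. The adjusted p was 0.0666 for PEN3, the exporter that works with PEN2 (119.2 ± 18.5 RPKM in hid1, 88.6 ± 10.9 RPKM in WT), and 0.183 for GTR2, a glucosinolate importer. Of 7 genes listed for the use of breakdown products or related conjugates, GGP1 fell and PCS1 rose. That GGP1 acts in glucosinolate breakdown is not shown by these data. GGP1, a peptidase of glutathione conjugates, stood at 41.9 ± 7.48 RPKM in hid1 and 67.6 ± 0.361 RPKM in WT (-0.69, SE 0.13, adjusted p = 0.00631). PCS1, the phytochelatin synthase, stood at 21.8 ± 2.67 RPKM in hid1 and 14.7 ± 1.14 RPKM in WT (0.53, SE 0.13, adjusted p = 0.0206), and lost its call in 3 of 13 alternatives (highest adjusted p 0.0766).

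**Figure D4:**
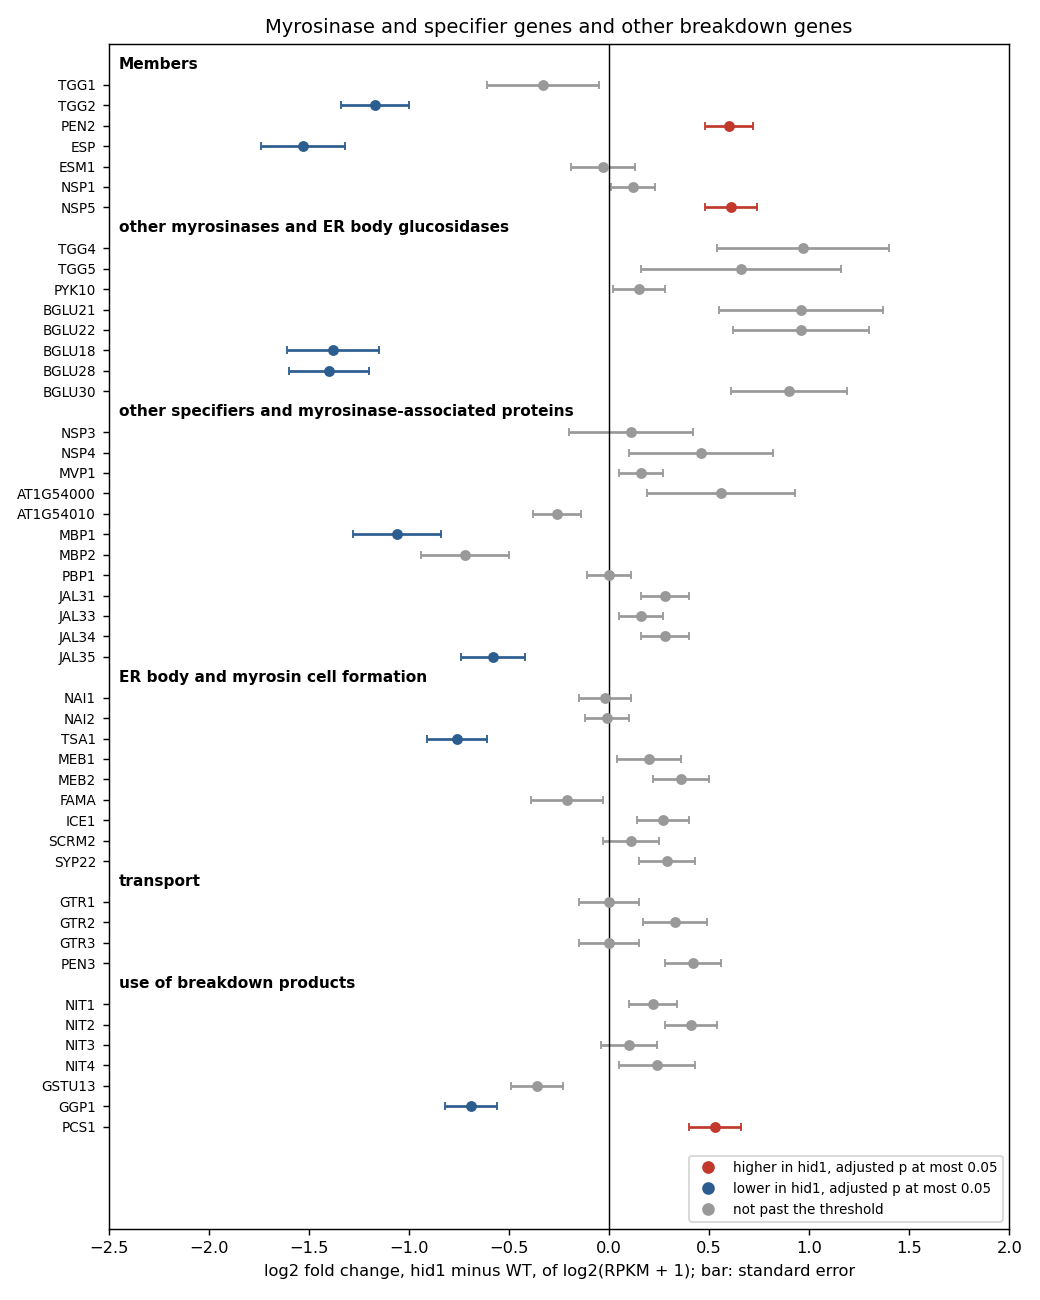
Log2 fold change of RPKM + 1 with standard error (positive: higher in hid1) for the 7 tested members and the 40 tested genes of the breakdown list in 5 groups. Coloured points passed an adjusted p of 0.05: 2 members and 1 list gene are red (higher in hid1), 2 members and 6 list genes are blue (lower).

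Marker genes of tissues in the seedling were read in the same libraries. Of 10 tested genes of guard cells and the stomatal lineage, where TGG1 and TGG2 are known to be active, none passed in the limma fit. An unadjusted p under 0.05 was reached by 3 of them, and by 5685 of all 18871 genes tested. The summed level of the 11 listed was 54.6 to 62.2 RPKM in hid1 and 52.1 to 55.8 RPKM in WT. That sum holds genes of opposite direction. KAT1, SLAC1 and HT1 had mean levels in hid1 of 0.757, 0.563 and 0.781 times those of WT. TMM, MUTE and GORK stood at 1.37, 2.7 and 1.38 times. Each of these 6 had no overlap between the genotypes, as had 34.6% of all genes tested. MYB60 stood at 1.06 times with overlap, and the median log2 fold change of the 10 tested was 0. The genes named here were chosen after their values were seen. MUTE was below the filter, and the part of these genes in the TGG2 result was not tested. Of 5 green tissue genes none passed in limma either (1 had an unadjusted p under 0.05), with a summed level of 51285.7 to 64315.7 RPKM in hid1 and 58470.6 to 59332.2 RPKM in WT. Of 9 root genes 3 rose (EXPA7, PRP3 and SCR) and 1 fell (IRT1, the iron transporter), a share of 44.4% beside the 13.6% of all genes tested. The summed level was 114.6 to 185.9 RPKM in hid1 and 92.1 to 169.3 RPKM in WT, and without IRT1 it was 108.1 to 181.2 RPKM in hid1 and 62.8 to 118.9 RPKM in WT. These calls depended on the processing: all marker lists together had 4 calls as reported, 2 with quantile or with median-ratio scaling and 1 without a filter. Of 5 tested seed maturation genes none passed in limma (1 had an unadjusted p under 0.05), with a summed level of 11.6 to 25.1 RPKM in hid1 and 7.80 to 18.9 RPKM in WT. No marker was at 0 in all libraries, and the part of root RNA in the member results was not tested.

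WT replicate 1 stood above the other WT libraries in the listed root genes except SCR, which had 13.7, 15.0 and 13.2 RPKM in WT. The mean log2 value of the 8 root genes other than IRT1 was 3.53, 3.27 and 3.29 in hid1, against 3.24, 2.51 and 2.56 in WT. IRT1, left out of that mean, went the other way. It had 4.71, 6.46 and 7.60 RPKM in hid1, against 50.42, 29.25 and 28.87 RPKM in WT (-2.33, limma adjusted p = 0.000127). The mean of the 8 genes therefore does not describe all listed root genes. BGLU21, a close relative of PYK10 known from roots, had 97.0, 57.6 and 62.9 RPKM in hid1, against 85.1, 23.6 and 22.6 RPKM in WT. It did not pass (limma adjusted p = 0.15) and was chosen after its values were seen. PYK10 itself did not set WT replicate 1 apart, with 1160, 1163 and 964 RPKM in WT. Among the members, the changes without WT replicate 1 were -1.25 for TGG2, -1.31 for ESP, 0.57 for PEN2 and 0.73 for NSP5.

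Likeness of pattern was measured as the root-mean-square difference of log2(RPKM + 1), each gene centred on its own mean, over the 6 libraries and 12712 genes of at least 5 RPKM on average. The gene nearest to ESP was CYP79F2, an enzyme of aliphatic glucosinolate synthesis, at a difference of 0.122 (2.26 ± 0.755 RPKM in hid1, 9.17 ± 2.13 RPKM in WT). CYP79F2 shared 2.89% of its 50-base exon words with other places, all in its neighbour CYP79F1. Next to ESP were EXPB3 (0.143) and ECS1 (0.173), and TGG2 was at 0.38. The nearest gene was AT4G18440 for TGG2 (0.0854), AT1G05790 for PEN2 (0.0255), AT3G07570 for NSP5 (0.0434), TUBG1 for TGG1 (0.174), CYL1 for ESM1 (0.012) and AT4G01330 for NSP1 (0.0302).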

How the data were processed

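Poly(A) RNA was measured in 6 seedling libraries, 3 of hid1 and 3 of WT, with group and number from the sample titles. Per the submitters' processing notes, reads were mapped to TAIR10 with TopHat2 2.0.9 and differential genes called with Cuffdiff 2.0.0. The deposited tables hold RPKM, per the file headers, with 1 library each. The counter, annotation, RPKM denominator, strand use and handling of reads with several places are not given in the sources here, and each can change RPKM, most of all for similar copies.

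Count models do not suit RPKM, so log2(RPKM + 1) was tested in limma 3.58.1 (R 4.3.3; lmFit, eBayes with trend), with genotype as sole term. Genes entered if their mean reached 1 RPKM in hid1 or WT, and p-values were adjusted over all genes tested. The fit was tested on simulated data. Depth was estimated by taking the most frequent low RPKM times exon length as 1 read. Symbols, exon lengths and positions came from RefSeq TAIR10.1, matched by gene ID (32835 of 33323), and were not compared with the authors' build. Sequences were read from the same assembly.

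The members and lists were chosen with earlier results of these data known. All members were named, and of each list group up to 5 called genes by adjusted p, or the 2 of highest mean where none was called. Other genes named were chosen after their values were seen. Alternatives were pseudocounts of 0.1 and 5, no filter, a mean of at least 5 RPKM, quantile and median-ratio scaling, the replicate number as a block, and each library left out. Python 3.11.15 with pandas 2.3.3, numpy 2.4.6 and matplotlib 3.10.9 served for tables and plots.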

Additional observations from a re-analysis of the deposited data

How the results depend on the processing

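The calls on TGG2, ESP, PEN2 and NSP5 kept their direction and side of the threshold under all 13 alternatives, the count of called members being 4 to 4 with a library left out. TGG1 ranged from -0.66 to 0.04 and ESM1 from -0.20 to 0.08 with a library left out, and neither passed; TGG1 was higher in hid1 only without hid1 replicate 2, and ESM1 without hid1 replicate 1 or 2 or WT replicate 2 or 3. With the replicate number as a block, the breakdown list had 14 calls in place of 7, the marker lists 8 in place of 4, and all genes 3635 in place of 2569. The labels do not say whether the replicate numbers pair libraries. The deviations of same-numbered libraries correlated at 0.315, 0.061 and 0.105, and hid1 replicate 3 went best with WT replicate 2 (0.255). These correlations do not settle whether the numbers are a pairing. The marker lists had 1 call without a filter and 2 with quantile or with median-ratio scaling. With a library left out, the calls ranged from 1430 to 3260 over all genes, from 5 to 13 in the breakdown list and from 2 to 6 in the marker lists, and the cause was not tested. The lowest count over all genes was without WT replicate 2 and the highest without WT replicate 1, and the marker lists had 2 calls without any one library other than WT replicate 1. Of all calls, 69.1% were higher in hid1 as deposited, 49.3% with quantile and 50.7% with median-ratio scaling. With pseudocounts of 0.1 and 5 the log2 fold change was -1.82 and -0.93 for ESP, -2.54 and -0.52 for BGLU28 and -1.83 and -0.39 for MBP1. Depth limits what can be said of low genes such as ESP and NSP2, with 82 to 479 and 0 to 2 reads per library.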

Other observations

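Neighbours of the members were read as values, chosen after those were seen. AT5G25970, annotated as a glycosyltransferase-family gene, lies 4196 bases from TGG2 on the same strand. It had 0.16, 0.06 and 0.21 RPKM in hid1, against 2.01, 2.17 and 1.67 RPKM in WT (log2 fold change -1.37, limma adjusted p = 0.000829). Its mean reached the filter of 1 RPKM only in WT. AT5G25990, between TGG2 and TGG1, was at or under 0.29 RPKM in each library. AT2G44500, the O-fucosyltransferase-family gene 6326 bases after PEN2 on the same strand, had 11.8, 11.6 and 12.2 RPKM in hid1, against 8.56, 7.30 and 7.13 RPKM in WT (0.57, adjusted p = 0.0125). The nearest tested neighbours of ESP, MVP1 (adjusted p = 0.351) and AT1G54050 (adjusted p = 0.228), did not pass. AT5G26010 beside TGG1 (0.58, adjusted p = 0.0684) and AT2G44510 after AT2G44500 (-0.48, adjusted p = 0.175) moved opposite to their member and did not pass. Apart from AT5G25970, AT2G44500 and TGG2 itself, no tested neighbour passed, while 13.6% of all genes tested were called. Besides TGG1 and those above, the tested neighbours were ASIL1, AT3G14200, AT3G14205, AT3G14220, NSP3, NSP4, AT2G33051, RLP27 and SLY2. Whether neighbours change together was not tested.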
